A study of Mus musculus with 4 samples.

Results

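Conventional CD4 T cells were taken here as the helper-lineage T cells left once regulatory and CD8 T cells were set aside, and 291 of the 27447 kept barcodes of CD45-selected tumour leukocytes met that description. They were chosen by their counts of unique molecular identifiers (UMIs), each of which stands for 1 captured RNA molecule. A kept barcode had 200 genes or more and a mitochondrial share of UMIs under 15%. It was a conventional CD4 T cell with at least 2 UMIs of the T cell receptor chains Cd3d and Cd3e together, at least 1 of Cd4, 0 of Cd8a and Cd8b1, 0 of Foxp3, 0 of Ncr1 and fewer than 2 of Trdc. It also had to hold fewer than 10 UMIs of the complement genes C1qa, C1qb and C1qc, which macrophages express, per 10000 UMIs. The values that chose the cells are those of the same counts analysed below, so levels set against other cell types are given as a description, with no test.

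The tumours were CT26, a colon carcinoma line of Balb/c mice, and the hosts were Balb/c mice 9 weeks old. Control libraries came from tumour-bearing mice with the treatment label control, and the agent they received, if any, is not given in the sources used here. Liproxstatin-1 libraries came from mice with the same tumour given for 8 days this inhibitor of ferroptosis, a form of death by iron-dependent lipid peroxidation. Leukocytes were taken with beads against CD45 and put through 10x droplet libraries, 2 per group, and the series title names its question as ferroptosis of neutrophils in tumours. All groups therefore carry the tumour and the CD45 selection, and the labels do not say whether the 2 libraries of a group come from separate animals, so every p-value rests on a spread between libraries that may be technical alone.

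A conventional CD4 T cell recognises peptides held on MHC class II molecules of other cells and helps them through cytokines and the ligand CD40L. Naive and memory cells of this lineage keep the transcription factors TCF1 (gene Tcf7) and LEF1 and the interleukin-7 receptor, and effector cells are grouped into T helper 1, T helper 2, T helper 17 and follicular helper types by their transcription factors and cytokines. Regulatory T cells, the FOXP3 lineage, share CD4 with them and restrain the others.

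The 38, 78, 70 and 105 conventional CD4 T cells of control replicate 1, control replicate 2, liproxstatin replicate 1 and liproxstatin replicate 2 held 284529, 614616, 571150 and 799342 UMIs. All later sets of 4 values follow this order of libraries. Median UMIs per cell were 6669, 6444, 6493 and 4981, and median genes per cell 1852, 1976, 2026.5 and 1698. Over all cell types, a library held 83129874 to 168597163 UMIs, and 4 to 22 barcode sequences were shared between a pair of libraries, at most 0.290% of the smaller one. Levels below are counts per 1000000 (CPM), the UMIs of a gene in a library's summed cells per 1000000 UMIs of those cells.

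The defining markers of the label were present, of which Cd4 and Cd3e were used by the rule and Tcf7 was not. Cd4 stood at 264, 259, 282 and 286 CPM and Cd3e at 594, 477, 490 and 459 CPM. Tcf7, which encodes TCF1, stood at 123, 200.1, 133 and 115 CPM, against 3.0 to 11.4 CPM in the gated regulatory T cells and 18.6 to 20.9 CPM in the gated CD8 T cells. No library of either class reached the lowest of the 4 Tcf7 levels of the conventional cells. Some markers of other cells were at 0 in the conventional CD4 cells of every library. Among these were Ms4a1 and Ebf1 (B cells), Ncr1 (NK cells, set to 0 by the rule) and Clec9a (dendritic cells). The dendritic cell markers Xcr1, Siglech and Cd209a were detected, and were at 0 only without the phagocyte-RNA barcodes described below. All 12 macrophage markers were detected, as given below.

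The edges of the rule were thinly supported by counts. Cd4 rested on 1 UMI in 147 of the 291 cells, on 2 in 78 and on 3 or more in 66, and 17 cells had the minimum of 2 CD3 UMIs. Just outside it lay 356 CD3-positive barcodes with no Cd4 and no CD8 UMI, in which Tcf7 stood at 159, 152, 80.9 and 92.5 CPM, and 25 barcodes barred by C1q alone. At the C1q limit, 26 cells lay just inside, at 5 to 10 C1q UMIs per 10000, and 6 barcodes just outside, at 10 to 20. An Ikzf2 or Il2ra UMI, genes that regulatory T cells express at a high level, was found in 139 of the 291 cells, or 39.5%, 41.0%, 55.7% and 50.5% by library. The same count was 96.4% to 100% in gated regulatory and 75.5% to 77.0% in gated CD8 T cells, so a regulatory T cell whose Foxp3 RNA was not captured cannot be told from an activated conventional cell by these genes.

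Conventional CD4 T cells were a minor and similar share of the kept leukocytes in all libraries. They made up 0.979% (95% Clopper-Pearson interval 0.694 to 1.34), 1.18% (0.931 to 1.47), 0.851% (0.664 to 1.07) and 1.21% (0.987 to 1.46), and the interval covers counting error only. The lowest and the highest share were both of liproxstatin libraries, and the means differed by −0.0491 percentage points, liproxstatin minus control. Among gated T cells they were 10.1% (7.27 to 13.6), 8.73% (6.97 to 10.8), 6.32% (4.96 to 7.92) and 8.24% (6.79 to 9.89). Both liproxstatin shares lay under both control shares, by 2.15 percentage points on average, and each control interval overlapped each liproxstatin interval. A two-sided exact permutation test of 2 against 2 libraries cannot go below p = 0.33. There were 1.36, 1.5, 0.959 and 1.30 conventional cells per regulatory T cell.

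**Figure D1:**
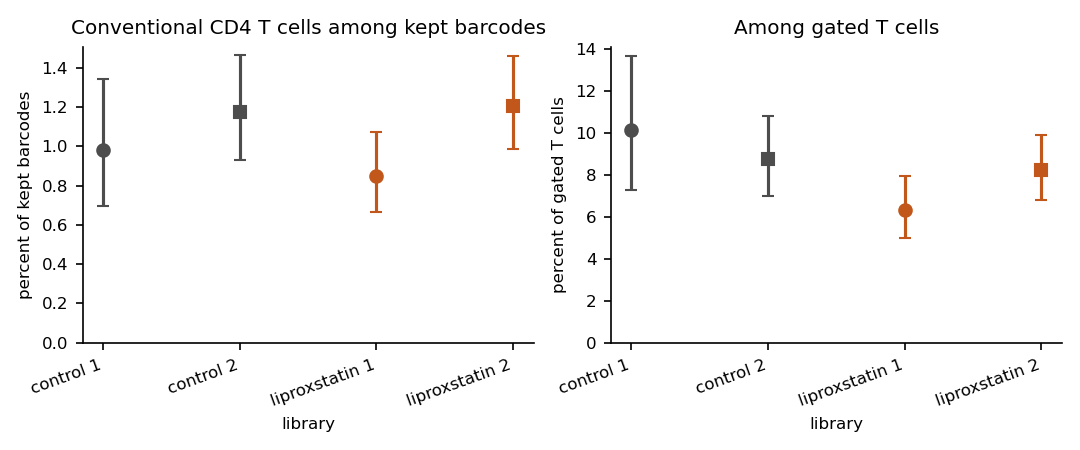
Share of conventional CD4 T cells by library, as percent of kept barcodes (left) and of gated T cells (right); points are libraries and bars are 95% Clopper-Pearson intervals. The left panel runs from 0.851% to 1.21% with the groups overlapping, and on the right the liproxstatin libraries, at 6.32% and 8.24%, lie under the control libraries, at 8.73% and 10.1%.

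As a population, these cells held naive or memory genes at a high level beside activated ones. Lef1, the partner of TCF1, stood at 94.9, 170.8, 89.3 and 68.8 CPM, against 22.7 to 45.6 CPM in regulatory and 6.4 to 11.7 CPM in CD8 T cells. Klf2, which maintains the recirculation receptor gene S1pr1, stood at 2070.1, 1479, 1091 and 1050 CPM, against 463 to 587 CPM in regulatory and 123 to 187 CPM in CD8 T cells. S1pr1 itself stood at 253, 197, 179 and 119 CPM, and at 31.8 to 71.1 and 3.6 to 9.5 CPM in the other classes. For these 3 genes the lowest library of the conventional cells lay above the highest library of either other class. Cd40lg, the gene of CD40L, stood at 133.6, 76.5, 57.8 and 61.3 CPM, and did not pass 12.1 CPM in a library of regulatory or CD8 T cells. Ccr7, the lymph node homing receptor, overlapped between the classes, with 106 to 207 CPM in conventional, 38.0 to 155 CPM in regulatory and 32.3 to 158 CPM in CD8 T cells.

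Since CD8 T cells held more UMIs, with medians of 11044.5 to 14750 by library against 5652 to 8330 in regulatory T cells, each cell was thinned to 2000 UMIs before cells with a UMI of a gene were counted. This left out 4 conventional cells, all of liproxstatin replicate 2. At that depth Tcf7 was seen in 26.3%, 28.2%, 24.3% and 22.8% of the conventional cells, in 0% to 3.57% of regulatory and 3.09% to 6.25% of CD8 T cells by library. In gated macrophages, which should lack it, Tcf7 was seen in 1 of 1059 cells. Without thinning Tcf7 was seen in 52.6%, 53.8%, 41.4% and 45.7% of the conventional cells, Cd40lg in 39.5%, 29.5%, 27.1% and 32.4%, and Tsc22d3 in 60.5%, 59.0%, 87.1% and 79.0%. At 2000 UMIs Cd40lg was seen in 21.1%, 15.4%, 10.0% and 15.8% of the conventional cells, and in 0.213% to 0.594% of CD8 T cells. It was seen in 0 of 1059 macrophages, which allows a share of up to 0.283%. The cells therefore carried these helper genes above the level that free RNA gave in macrophages.

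Il7r, the interleukin-7 receptor, was seen in 55.3%, 39.7%, 58.6% and 56.4% of the conventional cells and in 11% to 18.5% of CD8 T cells, while regulatory T cells, at 28.8% to 53.4%, overlapped them. Icos, a costimulatory receptor of activated helper cells, was seen in 57.9%, 43.6%, 71.4% and 64.4%, and in 10.7% to 37.2% of CD8 T cells, with 61.5% to 75% in regulatory T cells. The inhibitory receptor Ctla4 was seen in 42.1%, 20.5%, 50% and 46.5%, under every library of the regulatory T cells at 63.5% to 83.6%. Cytotoxic genes were less widespread: Nkg7 was seen in 18.8% to 31.4% of conventional and 92.9% to 94.2% of CD8 T cells, and the protease gene Gzmb in 19.8% to 28.9% and 46.3% to 55.0%. Ifng, the T helper 1 cytokine, was seen in 6.41% to 8.91% of conventional and 26.8% to 34.9% of CD8 T cells.

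**Figure D2:**
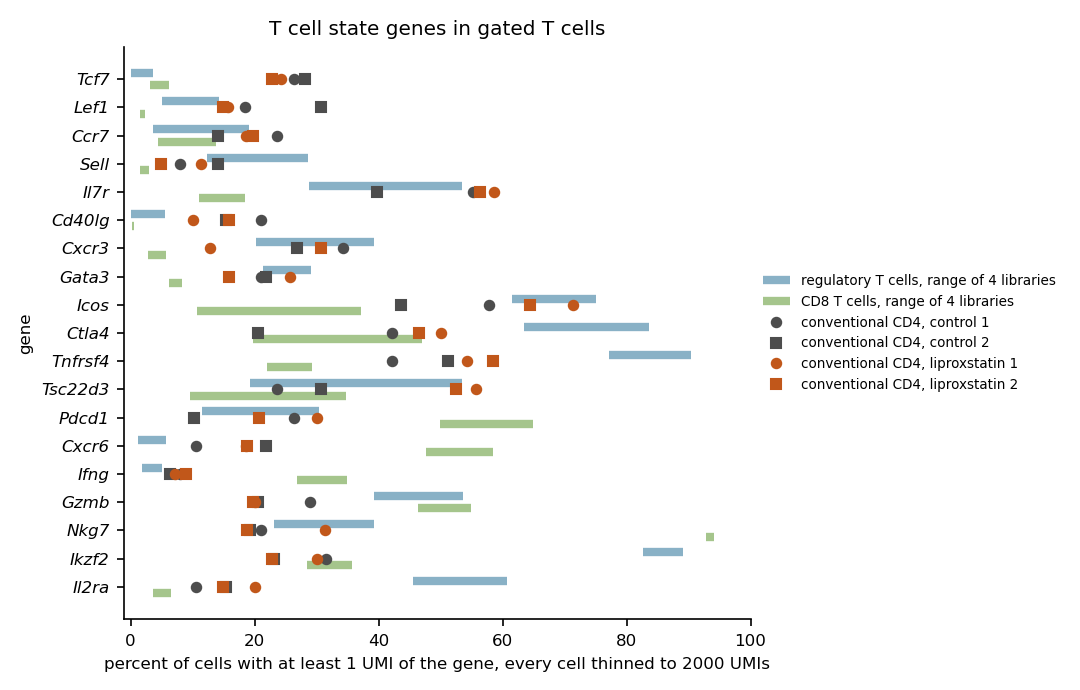
Percent of cells with at least 1 UMI of each of 19 genes after every cell was thinned to 2000 UMIs; points are conventional CD4 T cells of the 4 libraries and bars the range over libraries of regulatory and CD8 T cells. Tcf7 and Cd40lg lie to the right of both bars, Nkg7 and Ifng to the left of the CD8 bar, and Tsc22d3 separates the libraries by group, with control at 23.7% and 30.8% and liproxstatin at 55.7% and 52.5%.

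Within the 291 cells, 174 (59.8%) held UMIs of at least 2 of the naive genes and 89 (30.6%) of at least 2 of the T helper 1 genes, and 53 (18.2%) of both, without thinning. Gata3, the T helper 2 transcription factor that regulatory T cells also express, was found in 121 cells (41.6%). Bcl6, Cxcr5 or Il21, of follicular helper cells, was found in 18 (6.19%). At 2000 UMIs, Cxcr5 was seen in 0 of 287 cells, which allows a share of up to 1.05%. Cells with an Ikzf2 or Il2ra UMI and cells without one were both mixed: at least 2 naive genes were found in 50.4% and 68.4%, Nkg7 with Gzmb in 21.6% and 8.55%, and Gata3 in 52.5% and 31.6%. Apart from the cells with and without an Ikzf2 or Il2ra UMI, these classes share cells. Depth was not made equal. With the phagocyte-RNA barcodes described below left out, median UMIs of cells with such a UMI were 8308, 6668.5, 6389 and 4987. For cells without one they were 5983, 6443, 5862 and 4971.5. The classes are therefore given as counts alone.

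Across the treatment, 10 of 32 state genes, or 31.2%, had shares that did not overlap between the groups at 2000 UMIs, against 35.5% of 4385 genes counted the same way. The count is thus near the background and is not a result about these genes. Shares of Il7r, Tigit, Ctla4, Icos, Tnfrsf4 and Tsc22d3 were higher in both liproxstatin libraries, and those of Tcf7, Lef1, Gzmb and Mki67 lower in both. Mki67, of dividing cells, was seen in 10.5%, 10.3%, 2.86% and 5.94%. The widest gap was that of Tsc22d3, the glucocorticoid-induced leucine zipper, at 23.7%, 30.8%, 55.7% and 52.5% (exact permutation p = 0.33, the smallest possible, and 1 after adjustment over the 32 genes).

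Macrophage RNA was present in the cells and unequal between the groups. The median cell held 2.18, 2.58, 2.46 and 2.23 UMIs of the lysozyme gene Lyz2 per 10000 UMIs, and 244 of the 291 cells had at least 1. In addition, 22 barcodes (1, 3, 7 and 11 by library) held at least 10 Lyz2 UMIs or at least 20 UMIs of the antigen-presentation genes Cd74, H2-Aa, H2-Ab1 and H2-Eb1 per 10000 UMIs. They are called phagocyte-RNA barcodes below, and the limits were set after the values had been seen. They carried 1.51%, 4.37%, 26.4% and 14.8% of the conventional cells' UMIs, and 6 of the 22 were among the barcodes with the highest doublet scores. All 9 barcodes at the antigen-presentation limit came from liproxstatin libraries, 5 and 4. The summed CPM of the 12 macrophage markers was 889 to 1481 in control and 3532 to 6163 in liproxstatin libraries, against 40635 to 45827 in gated macrophages. Without the 22 barcodes it was 856 to 963 and 631 to 873. The summed CPM of dendritic cell markers was 144 to 168 in control and 1455 to 2693 in liproxstatin libraries, and 146 to 163 and 125 to 174 without the 22. That of NK cell markers was 52.7 to 143 and 223 to 549.8, and 46 to 50 and 48.4 to 85.6 without them. The summed T cell markers went the other way, at 5179 to 5247 and 4374 to 4903 CPM, and at 5256 to 5302 and 5365 to 5532 without the 22.

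**Figure D3:**
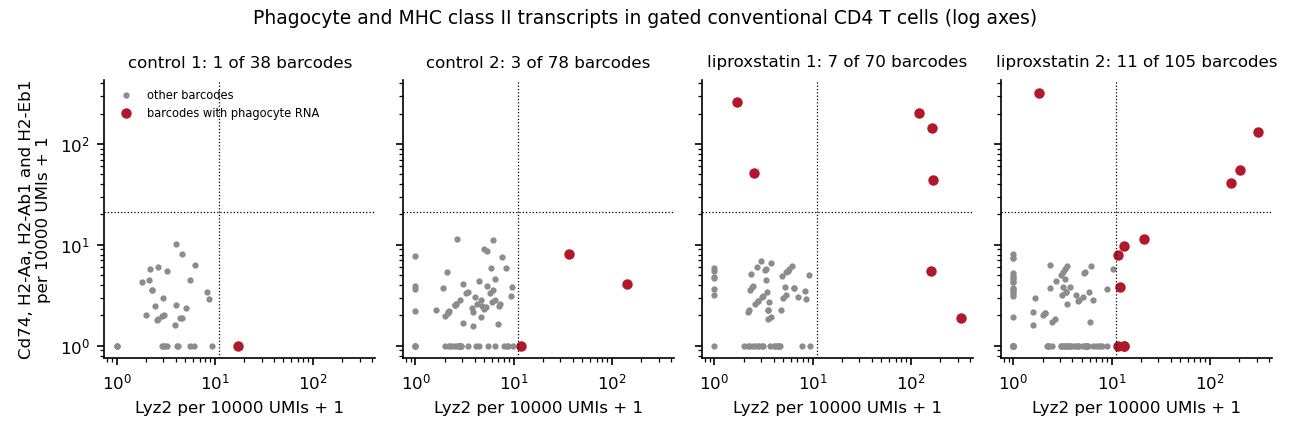
Lyz2 against the summed antigen-presentation genes Cd74, H2-Aa, H2-Ab1 and H2-Eb1, both per 10000 UMIs with 1 added and on log axes, for each of the 291 conventional CD4 T cells by library, with the limits of 10 and 20 as lines. Most cells lie at the lower left in every library, and the 9 barcodes past the antigen-presentation limit all belong to liproxstatin libraries.

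Summed over each library and compared by edgeR's quasi-likelihood test with Benjamini-Hochberg adjustment, 30 genes rose and 6 fell with liproxstatin among 6107 tested at an adjusted p under 0.05, or 0.491% and 0.0982% of the genes. The CPM values did not overlap between the groups for 38.6% of the genes tested. Most of the 30 rising genes are macrophage or antigen-presenting genes. In 24 of the 30, the 22 phagocyte-RNA barcodes held over 50% of the liproxstatin UMIs, and 25 were higher in gated macrophages than in the remaining conventional cells. These counts follow in part from how the barcodes were chosen, since Lyz2, Cd74, H2-Aa, H2-Ab1 and H2-Eb1 defined them, and for these genes the values without the 22 are a description alone. H2-Aa, an MHC class II chain at chr17:34282744-34287823 of GRCm38, stood at 21.1, 21.2, 688 and 343 CPM, with 96.0% of the liproxstatin UMIs in those barcodes, and its log2 fold change of 4.52 ± 0.40 (SE) had an adjusted p of 0.000354. Without the 22 barcodes the log2 fold change of H2-Aa was 0.15.

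H2-Ab1 stood at 31.6, 50.4, 483 and 349 CPM with all barcodes and at 32.1, 52.7, 40.4 and 39.6 CPM without the 22. Apoe and Cybb were not used to choose the barcodes. Apoe, a lipid carrier of macrophages, rose by 1.92 ± 0.23 on the log2 scale (edgeR adjusted p = 0.000569), with 84.4% of its liproxstatin UMIs in the 22 barcodes. Its log2 fold change without them was −0.40 (adjusted p = 0.873). Cybb, of the phagocyte oxidase, stood at 17.6, 8.14, 142 and 91.3 CPM, with 92.9% of its liproxstatin UMIs in the 22 barcodes, and without them it was too low to test. H2-Eb1, Cd74, H2-DMb2, Fcgr1, Fcgr3, Cd68, Ly86, Ms4a6c, Ms4a6d, Napsa, Igsf6 and Ctsc rose as well over all barcodes. Values below are over all barcodes unless a sentence says that they are without the 22, and in that second fit such barcodes were left out of every class compared.

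Without them, 5 genes rose and 2 fell of 5451 tested, or 0.0917% and 0.0367% (0.128% together), and 37% of these genes did not overlap. Rising were Zfp36l2, Txnip, Itgav, Ccl1 and Ccl3, and falling were Ccl5 and Rps29. Of the 36 genes called over all barcodes, 21 could be tested in both fits and 5 were called in both. Txnip and Ccl5 joined only without the 22 barcodes. The comparison of fold changes with and without the barcodes shows which genes moved.

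**Figure D4:**
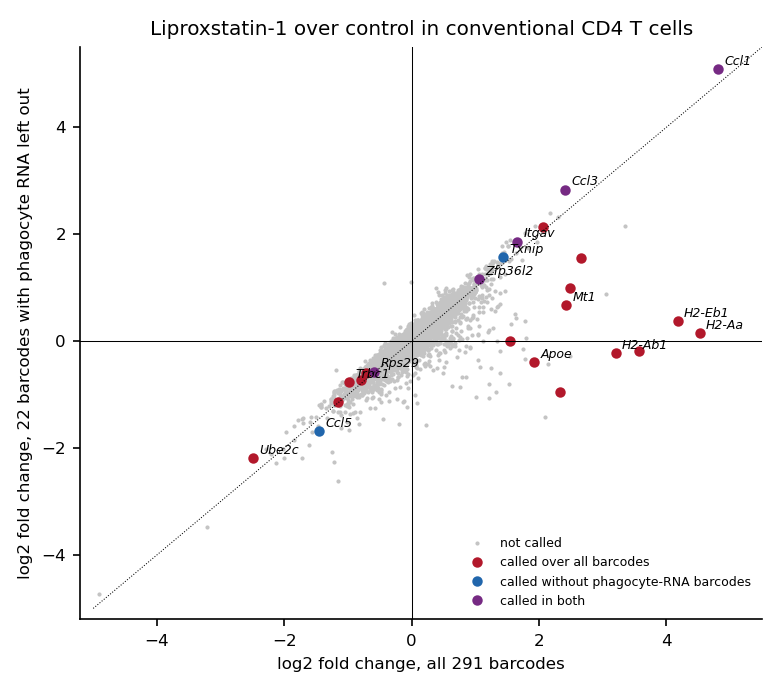
Log2 fold change (liproxstatin over control) of each of 5443 genes tested in both fits, over all conventional CD4 barcodes (horizontal) and without the 22 phagocyte-RNA barcodes (vertical). Zfp36l2, Itgav, Ccl1 and Ccl3 keep their height near the diagonal, whereas H2-Aa, H2-Ab1 and Apoe drop to near 0 or below it.

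Zfp36l2 encodes an RNA-binding protein that promotes decay of AU-rich transcripts, many of them of cytokines. It lies at chr17:84183931-84187947 (GRCm38, minus strand). It stood at 952, 619.9, 1672 and 1738 CPM, both liproxstatin libraries above both controls. The log2 fold change was 1.06 ± 0.20 (n = 2 per group, adjusted p = 0.025), and 1.16 ± 0.19 (adjusted p = 0.032) without the phagocyte-RNA barcodes. At least 1 UMI of it was found in 94.7%, 85.9%, 97.1% and 94.3% of the cells. Over all barcodes the call was lost without control replicate 2, at 0.76 with an adjusted p of 0.081, and without the 22 barcodes it held whichever library was left out.

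Txnip, whose product binds thioredoxin and limits glucose uptake, lies at chr3:96557957-96561883. It stood at 182, 267, 580 and 841 CPM without the phagocyte-RNA barcodes, the groups apart. It rose by 1.58 ± 0.26 on the log2 scale (adjusted p = 0.032), and the call held whichever library was left out. Over all barcodes it stood at 179, 267, 473 and 808 CPM and missed the threshold, with a log2 fold change of 1.44 ± 0.29 and an adjusted p of 0.063. Tsc22d3, at chrX:140539528-140600659, missed it in both fits. Its levels were 179, 207, 460 and 362 CPM, its log2 fold change 1.01 ± 0.23 (adjusted p = 0.059), and 1.17 ± 0.24 (adjusted p = 0.080) without the 22 barcodes.

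Itgav, the integrin alpha V chain at chr2:83724397-83806916, stood at 56.2, 39.0, 180 and 125 CPM. Both liproxstatin libraries lay above both controls, and it rose by 1.66 ± 0.31 on the log2 scale (adjusted p = 0.019), and by 1.86 ± 0.32 (adjusted p = 0.036) without the phagocyte-RNA barcodes. In that second fit the call was lost without control replicate 2, with an adjusted p of 0.058, and without the cell with most Ccl5 UMIs of each library, at 0.079.

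The rising chemokine genes lie near each other on chromosome 11 and rested on few cells. Ccl3, at chr11:83647844-83649355, attracts myeloid cells and T cells. It stood at 24.6, 37.4, 154 and 208 CPM, and rose by 2.41 ± 0.32 on the log2 scale (adjusted p = 0.000968), and by 2.83 ± 0.41 (adjusted p = 0.025) without the 22 barcodes. Without the 22, a single cell gave 2 of 7, 1 of 8, 37 of 42 and 78 of 110 of the Ccl3 UMIs of its library. With that cell of each library left out too, Ccl3 stood at 18, 12.3, 12 and 48.8 CPM, the groups overlapping, and was too low to test. Ccl1, a ligand of CCR8 at chr11:82176657-82305690, was more concentrated still: its 2, 23, 493 and 542 UMIs came from 1, 2, 7 and 7 cells. Ccl1 rose by 4.81 ± 0.49 on the log2 scale (adjusted p = 0.013), but 411 of the 493 UMIs of liproxstatin replicate 1 and 267 of the 542 of liproxstatin replicate 2 came from 1 cell each. Without the 22 barcodes and the cell with most Ccl1 UMIs of each library, Ccl1 stood at 0, 19, 196 and 419 CPM, both liproxstatin libraries still higher, and the call was lost (adjusted p = 0.416). Ccl4, next to Ccl3, stood at 38.7, 73.2, 98.0 and 245 CPM and did not pass (adjusted p = 0.531 over all barcodes and 0.080 without the 22).

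Ccl5 and Rps29 fell. Ccl5, a chemokine of effector and memory T cells at chr11:83525778-83530518, stood at 853, 589, 292 and 182 CPM without the phagocyte-RNA barcodes, both liproxstatin libraries under both controls. It fell by 1.68 ± 0.26 on the log2 scale (adjusted p = 0.032), a call kept with any 1 library left out but resting on single cells. One cell gave 51 of 239, 191 of 346, 60 of 123 and 34 of 124 of the Ccl5 UMIs, which came from 17, 19, 10 and 19 cells. With that cell of each library left out as well, Ccl5 stood at 682, 269, 152 and 133 CPM, the groups still apart, at −1.79 ± 0.43 on the log2 scale, and the call was lost (adjusted p = 0.436). Over all barcodes Ccl5 stood at 840.0, 563, 378 and 160.1 CPM with an adjusted p of 0.527. Without the cells that had an Ikzf2 or Il2ra UMI its log2 fold change was −0.44. Rps29, a ribosomal protein gene, stood at 9247, 8687, 6657 and 5869 CPM and fell by 0.58 ± 0.11 on the log2 scale (adjusted p = 0.018), a call that was lost without either control library. Without the 22 barcodes and the cell with most Ccl5 UMIs of each library its adjusted p was 0.055.

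Over all barcodes, Trbc1, Tmsb10, Arl4c and Ube2c fell as well. Trbc1, 1 of the 2 constant genes of the T cell receptor beta chain, at chr6:41538218-41539881, stood at 1202, 1180, 606 and 659 CPM. It fell by 0.98 ± 0.17 on the log2 scale (adjusted p = 0.012), while the partner gene Trbc2 stood at 1466, 1282, 940.2 and 1294 CPM (adjusted p = 0.616). The 2 genes are alike in sequence, and whether reads were split between them was not tested. Without the phagocyte-RNA barcodes Trbc1 missed the threshold, at −0.77 with an adjusted p of 0.093.

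Arl4c, a small GTP-binding protein at chr1:88673125-88702221, stood at 344, 347, 163 and 160.1 CPM and fell by 1.16 ± 0.23 on the log2 scale (adjusted p = 0.025). Its size was about the same without the 22 barcodes (−1.14, adjusted p = 0.093), and the call over all barcodes was lost without liproxstatin replicate 1. Ube2c, of mitotic cells, stood at 109, 112, 7.0 and 31.3 CPM, from 1, 5, 4 and 6 cells, and its adjusted p was 0.041, and 0.080 without the 22 barcodes. Tmsb10, an actin-binding protein, had an adjusted p of 0.013, and 0.071 without the 22 barcodes, and the call over all barcodes was lost without control replicate 1. Klf2 stood at 2070.1, 1479, 1091 and 1050 CPM, both liproxstatin libraries under both controls, and narrowly missed the threshold (−0.79 ± 0.17, adjusted p = 0.053, and 0.139 without the 22 barcodes).

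Few members of the gene groups passed the test. In simulated counts, 0 of 189 genes set to change by 1 on the log2 scale were called, so a gene not called may have changed. Each group is read against the 0.589% of all genes called and a median log2 fold change of −0.01 over all genes. None of the 12 naive and memory-like genes passed, with a median log2 fold change of −0.05, and −0.03 without the 22 barcodes. None of the 12 T helper 1 genes passed, 11 of them with values under 0 and a median of −0.64, against 9 and −0.49 without the 22. The T helper 2 group (4 tested, median −0.62), the T helper 17 group (2 of 9 tested) and the follicular helper group (4 of 9 tested, median 0.37) had no gene past the test in either fit. Gata3 stood at 172, 218, 137 and 144 CPM and Cd200, a follicular helper gene, at 28.1, 61.8, 112 and 104 CPM.

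None of the 7 tested inhibitory receptor and exhaustion genes passed, all 7 with values above 0 and a median log2 fold change of 0.85. The CPM of 5 of the 7 were higher in both liproxstatin libraries, against 23.2% of all genes. Ctla4 stood at 387, 145, 973 and 579 CPM with an adjusted p of 0.682, and Lag3 at 77.3, 56.9, 123 and 90.1 CPM. The median of the group without the phagocyte-RNA barcodes was 0.69 over 6 genes. The regulatory T cell group, which holds Ctla4 too, had 11 tested genes, none called and a median of 0.50 (0.54 without the 22). A different set of 6 regulatory T cell markers was summed: Foxp3, Il2ra, Ikzf2, Ctla4, Tnfrsf18 and Gpr83. Foxp3 was set to 0 by the rule. The summed CPM of this set was 1272 to 1441 in control and 1564 to 2119 in liproxstatin libraries. The part of regulatory T cells in the levels of Ctla4 was not tested.

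Of 18 T cell receptor signalling genes, 1 fell (Trbc1) and the median log2 fold change was −0.26, and without the phagocyte-RNA barcodes none was called and the median was −0.06. None of the 10 costimulatory genes passed, with a median of −0.07, and 0.06 without the 22. Among them Cd40lg stood at 134, 76.5, 57.8 and 61.3 CPM, lower in both liproxstatin libraries, with an adjusted p of 0.432. None of the 11 activation-induced genes passed, with a median of 0.47 and of 0.57 without the 22, and Nfkbia, an inhibitor of NF-kappaB, stood at 587, 604, 1273 and 833 CPM (adjusted p = 0.182). None of the 10 helper cytokine genes passed over all barcodes, and 1 of 9 (Ccl5) fell without the 22. Ltb, lymphotoxin beta, stood at 1227, 1326, 828 and 991 CPM (adjusted p = 0.24). Of 10 cytotoxic genes 1 rose (Ccl3), with a median of −0.15, and of 14 homing and adhesion genes none, with a median of −0.03. Without the 22 these medians were −0.11 and 0.01.

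Of 13 tested glucocorticoid-inducible genes, 2 rose, Zfp36l2 and Mt1, 11 had values above 0 and the median log2 fold change was 0.46. Without the phagocyte-RNA barcodes 2 rose, Zfp36l2 and Txnip, 10 were above 0 and the median was 0.51. Mt1, a metallothionein, stood at 35.1, 39.0, 280.1 and 148 CPM over all barcodes. The group was drawn up with earlier results of these data known, so its direction is not independent evidence.

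The genes that act in ferroptosis itself did not pass. None of the 11 tested ferroptosis defence genes was called, 10 were above 0 and the median log2 fold change was 0.44, which was 0.04 over 9 genes without the phagocyte-RNA barcodes. Gpx4, the glutathione peroxidase that reduces lipid peroxides, stood at 313, 373, 366 and 347 CPM, the groups overlapping. Ftl1, the ferritin light chain, stood at 1209, 1337, 2991 and 1769 CPM over all barcodes and at 1213, 1228, 1065 and 1151 CPM without the 22. Slc7a11, of the cystine transporter, gave 0, 13, 8.75 and 0 CPM. None of 8 ferroptosis-promoting genes was called, with a median of 0.20, and 0.03 without the 22.

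None of the 17 tested genes induced by type I interferon was called, 16 of them with values under 0 and a median log2 fold change of −0.60. Without the phagocyte-RNA barcodes all 16 tested were under 0, the median was −1.0, 9 had an unadjusted p under 0.05 and 9 were lower in both liproxstatin libraries, where 15.2% of all genes were. Ifi27l2a stood at 3761, 2577, 2348 and 1556 CPM (adjusted p = 0.529) and Isg15 at 724, 304, 379.9 and 309 CPM. For Isg15 the groups overlapped, with control replicate 1 highest. Of 17 cell cycle genes 1 fell (Ube2c), 15 were under 0 and the median was −0.50. Of the 17, 2 were lower in both liproxstatin libraries, where 15.4% of all genes were. That count is near the background and is not a result about these genes. Without the 22 none was called, 13 were under 0 and the median was −0.26. Stmn1 stood at 239, 289.6, 35.0 and 322 CPM and Top2a at 155, 195, 26.3 and 165 CPM, low in liproxstatin replicate 1 only. Among 16 glycolysis and hypoxia genes none was called, with a median of 0.07, and among 15 immediate early and heat shock genes none, with a median of 0.43. Without the 22 these medians were −0.02 and 0.17.

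Whether the response differed from that of the other T cells was tested as an interaction in edgeR, with libraries as a block. Against regulatory T cells, 4 genes differed over all barcodes, Igkc, Napsa, Marcks and Atf3, of 7083 tested (0.0565%), and none of 6360 without the phagocyte-RNA barcodes. In that second fit 385 genes had an unadjusted p under 0.05, and DESeq2 called 0 genes over all barcodes. Against CD8 T cells, 46 genes differed of 10455 (0.44%), and 8 of 10041 (0.0797%) without those barcodes, 2 of them with a higher and 6 with a lower response in the conventional cells (0.0199% and 0.0598%). Within each class alone, 1 gene rose and 1 fell of 6503 in regulatory T cells (0.0154% each, 0.0308% together), and 53 rose and 20 fell of 11825 in CD8 T cells (0.448% and 0.169%, 0.617% together).

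Zfp36l2 was among the 8. It stood at 308, 202, 1256 and 1091 CPM in CD8 T cells (adjusted p = 0.059 within that class) and at 285, 196, 1184 and 794 CPM in regulatory T cells, where it rose (adjusted p = 0.020). In every class both liproxstatin libraries lay above both controls, and the conventional cells had the highest control levels. The log2 fold change of the conventional cells was lower than that of CD8 T cells by a difference of −1.12 ± 0.14 (adjusted p = 3.14e-05), and −1.03 ± 0.14 (adjusted p = 0.000255) without the phagocyte-RNA barcodes. The call over all barcodes was lost without control replicate 2 (adjusted p = 0.0866). Against regulatory T cells the difference for Zfp36l2 was not past the threshold (adjusted p = 0.257).

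Ccl5 was 1 of the 8 too. It stood at 777, 735, 1279 and 1033 CPM in CD8 T cells, where it rose, and fell in the conventional cells without the phagocyte-RNA barcodes. The difference there was −2.28 ± 0.17 on the log2 scale (adjusted p = 5.44e-09), against an adjusted p of 0.39 over all barcodes. With the cell with most Ccl5 UMIs also left out of each library of the conventional cells, the difference was −2.24 ± 0.53 and the call was lost (adjusted p = 0.805). Ccl3 and Ccl4 had a higher response than in CD8 T cells, by 2.46 ± 0.40 and 1.56 ± 0.27 on the log2 scale without those barcodes (adjusted p = 0.014 and 0.011), and neither passed over all barcodes. Without the cell with most Ccl3 UMIs of each library as well, the Ccl3 difference was 0.78 ± 0.86 (adjusted p = 0.987). For Ccl4, without the phagocyte-RNA barcodes, a single cell gave 2 of 10, 2 of 12, 23 of 47 and 35 of 60 UMIs of its library. The Ccl4 difference without those single cells was not tested. Ube2c, Fosl2, Socs1 and Rps27 had a lower response in both fits. Over all barcodes, those of Ube2c, Fosl2 and Rps27 were lost without either control library, and that of Socs1 without control replicate 2 or liproxstatin replicate 1.

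**Figure D5:**
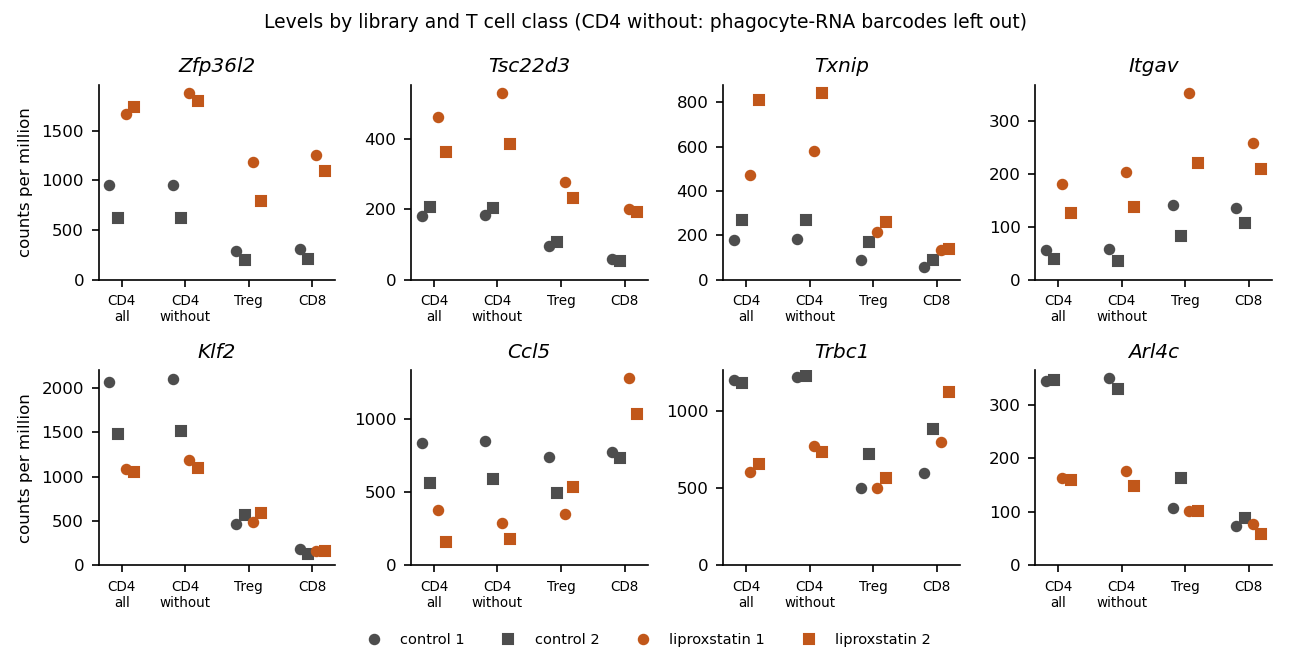
CPM of 8 genes by library in conventional CD4 T cells (all barcodes, and without the phagocyte-RNA barcodes), regulatory T cells (Treg) and CD8 T cells; each point is 1 library and no error bar is drawn. Zfp36l2 and Tsc22d3 are higher in both liproxstatin libraries in every class, whereas Ccl5 is lower in both in the conventional cells and higher in both in CD8 T cells.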

How the data were processed

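Each library was deposited as 1 matrix of raw UMI counts over 32285 genes, with 29092 barcodes in all, per the file headers. These headers give Cell Ranger version 6.1.1, while version 4 and build mm10 stand in the submitters' processing notes. Other steps: not given in the sources used here. Groups and replicate numbers are those of the sample titles; numbers in the deposited names differ from them and were not used.

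Cells were gated on the counts as described, and gates for regulatory (Foxp3), CD8 (at least 2 Cd8a and Cd8b1 UMIs) and other cells were set the same way. Counts were summed per library and class and tested in edgeR 4.0.16 (R 4.3.3) with filterByExpr, TMM normalization, the quasi-likelihood test and Benjamini-Hochberg adjustment over all genes tested, at 0.05. The interaction fits held both classes, with the library as a block. The procedure was tested on counts simulated with the same spread between libraries for every gene. Of genes set to change by 1 on the log2 scale, 0 of 189 were called in the treatment response. For the differences from regulatory and CD8 T cells these were 0 of 198 and 0 of 200. With a change of 2 on the log2 scale, 87.6%, 44.7% and 55.5% were called. Each log2 fold change sets liproxstatin over control and has its SE. Doublets were not removed in the main analysis. Scrublet scores (scanpy 1.11.5), taken at 0.8% per 1000 barcodes, called 0, 0, 5 and 3 of the conventional cells, and its own threshold 1 to 201 barcodes per library. Macrophage shares used 300 macrophages drawn per library, less those under the thinning depth. Gene positions come from GENCODE M21 (GRCm38).

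The cells, the 20 gene lists and the rules were chosen with earlier results of these data known. Genes are named if among the 12 smallest p-values per direction, as called list members, as up to 4 highest members of a list, or among the 6 smallest p-values per direction in a difference, leaving out gate, ribosomal, mitochondrial, receptor segment and numbered genes. Rps29, Rps27, Socs1, Tsc22d3, Txnip, Arl4c, Klf2, Ccl4, Cd40lg, Trbc2 and the markers set beside other classes were named after their values were seen. Alternatives were RLE scaling, no filter, DESeq2 1.42.0, a replicate block, other gates, equal cell numbers, leaving out libraries and, chosen after seeing the data, leaving out the phagocyte-RNA barcodes, alone or with the cell of most Ccl1, Ccl3 or Ccl5 UMIs in each library. A few called genes and list members are not reported here.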

Additional observations from a re-analysis of the deposited data

Results flagged for a closer look

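The difference in response to liproxstatin, conventional CD4 minus another class of T cell on the log2 scale, passed the edgeR interaction test for the following genes among those named. Each is given over all barcodes and then without the phagocyte-RNA barcodes.

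Against regulatory T cells, the difference for Igkc was 9.75 (adjusted p = 0.00817), a gene with no UMI in the control conventional cells, so that its fitted size depends on the prior count. It was 5.55 (adjusted p = 0.822) without those barcodes. Napsa differed by 5.25 (adjusted p = 0.0291) and was then too low to test. Marcks differed by 3.55 and Atf3 by 2.59 (adjusted p = 0.0476 for both), with 0.47 and −0.39 without them (adjusted p of 0.958 and 0.957).

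Against CD8 T cells, antigen-presentation and macrophage genes had the higher response. H2-Eb1 differed by 3.31 (adjusted p = 1.57e-06), H2-Ab1 by 2.61 and H2-Aa by 3.67. Apoe differed by 1.81, Napsa by 3.66 and Mt1 by 2.17 (adjusted p = 0.000221 for Mt1, the largest of the 6). Without the phagocyte-RNA barcodes the adjusted p of all 6 was at least 0.949, and the differences for H2-Eb1, Apoe and Mt1 were 0.31, −0.35 and 0.48.

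A lower response than in CD8 T cells was found for Zfp36l2 (−1.12), Ube2c (−2.36) and Fosl2 (−1.22), an AP-1 transcription factor, and these remained past the threshold without those barcodes, at −1.03, −2.17 and −1.15. Over all barcodes the call for Zfp36l2 was lost without control replicate 2 (adjusted p = 0.0866), and those for Ube2c and Fosl2 without either control. Ccr7 differed by −1.38, Klf2 by −0.84, Icos by −0.97, the chemokine receptor gene Cxcr4 by −1.01 and Trbc1 by −1.34, with adjusted p-values of 0.0672, 0.0746, 0.147, 0.303 and 0.208 without those barcodes. Cxcl3 differed by −4.48 (adjusted p = 0.00208) and by 0.49 without them. Over all barcodes, of the 19 differences above, those of H2-Eb1, H2-Ab1 and Apoe alone held whichever library was left out.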

How the results depend on the processing

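The count of 36 genes called in the treatment response was 37 with RLE scaling and 29 with DESeq2. It was 154 without the filter on low counts, 10 with at least 2 Cd4 UMIs, 8 without cells holding Ikzf2 or Il2ra, 7 without the highest doublet scores, 5 with 38 cells per library and 7 without the phagocyte-RNA barcodes. It ran from 85 to 214 when 1 library was left out, and was 40, 47, 63 and 80 when control replicates 1 and 2 and liproxstatin replicates 1 and 2 were left out in turn without the phagocyte-RNA barcodes. Without those barcodes and the cell with most Ccl1, Ccl3 or Ccl5 UMIs of each library it was 6, 5 and 4. Each fit without a library leaves 1 group with a single library, which is assumed to vary like the others. With the replicate block it was 18. Same-numbered libraries share only a number, and their deviations from the group means correlated at 0.054. With 2 libraries per group the crossed value, −0.054, is fixed by that value and adds no information. The response could not be fitted for cells with no C1q and no Lyz2 UMI, since 0, 1, 2 and 12 cells were left.

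The difference from regulatory T cells gave 4 genes, and 0 with DESeq2 and without the phagocyte-RNA barcodes, 22 without the highest doublet scores, 94 without the filter and 0 to 187 when 1 library was left out. The difference from CD8 T cells gave 46, and 22 with DESeq2, 23 without the highest doublet scores, 8 without the phagocyte-RNA barcodes, 22, 11 and 10 without those and the cell with most Ccl1, Ccl3 or Ccl5 UMIs, 130 without the filter and 8 to 167 when 1 library was left out. The cause of these changes was not tested.

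The difference in the share of kept cells, −0.0491 percentage points, was 0.0349 with at least 2 Cd4 UMIs, 0.0735 with no C1q and no Lyz2 UMI, and −0.226 to 0.128 when 1 library was left out. In particular it was 0.0493 without control replicate 2 and 0.128 without liproxstatin replicate 1. The difference in the share of gated T cells, −2.15 points, was 5.90 with no C1q and no Lyz2 UMI, and −3.11 to −1.19 when 1 library was left out. State genes whose shares did not overlap numbered 10, and 16 without thinning.

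Without the phagocyte-RNA barcodes the log2 fold change was −0.23 for H2-Ab1, −0.40 for Apoe and −0.21 for Ftl1. When 1 library was left out in addition, it was −0.47, −0.24 and −0.24 for H2-Ab1 and −0.49 for H2-Aa (without liproxstatin replicate 1). It was −0.56, −0.18, −0.71 and −0.12 for Apoe, and −0.22, −0.20, −0.15 and −0.28 for Ftl1. When the cell with most Ccl1, Ccl3 or Ccl5 UMIs of each library was left out instead, it was −0.34, −0.36 and −0.28 for H2-Ab1, −0.42, −0.42 and −0.41 for Apoe, and −0.18, −0.20 and −0.14 for Ftl1. Over 28 named genes and 551 alternative values, these 24 changed direction, 349 kept their call, 108 lost and 70 gained one. Both the 38 to 105 cells per library and the 2 libraries per group limit the precision, and their parts were not separated.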

Other observations

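Most RNA of several cytokines came from single conventional CD4 T cells in some libraries, which were chosen here after their values were seen. In control replicate 2, 1 cell of 10783 UMIs held 394 of the 403 Il2 UMIs and 166 of the 184 Ifng UMIs of its library, with 9 UMIs of Gata3. The Il2 level of that library, 656 CPM, thus rested on this cell, and the other libraries stood at 7.03, 17.5 and 7.51 CPM.

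In liproxstatin replicate 2, 1 cell of 31448 UMIs held 281 of the 283 Il13 UMIs and 59 of the 60 Il5 UMIs, the cytokines of T helper 2 cells, together with 8 UMIs of Gata3. Another cell of that library, of 51261 UMIs, held 54 of its 105 Ifng UMIs with 238 UMIs of Ccl1. A further cell, of 25046 UMIs, held 267 UMIs of Ccl1, 78 of the 166 Ccl3 UMIs and 35 of the 73 Csf2 UMIs, the gene of GM-CSF. In liproxstatin replicate 1, 1 cell of 12824 UMIs held 411 of the 493 Ccl1 UMIs and 7 of the 11 Il21 UMIs. The 7 UMIs of Il17a came from 3 cells, all of liproxstatin replicate 2. With 1 such cell in a library, neither their number nor their levels can be compared between the groups. Other cytokine RNA was spread more widely: the 27 Ifng UMIs of liproxstatin replicate 1 came from 14 of 70 cells, with at most 5 in 1, and the 15 and 23 Tnf UMIs of control and liproxstatin replicate 2 from 11 and 13 cells.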
